A study of Homo sapiens with 8 samples.

Results

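The genes described here are 46 of the 19892 in the deposited table, listed by name because they act at the start of S phase: in licensing of replication origins, activation of the replicative helicase, DNA synthesis at the fork, nucleotide supply, control of the passage from G1 to S, and chromatin assembly. The rule used gene names, not measured values. All 46 were present in the table and passed the filter on low counts in RNA-seq, in Ribo-seq and in the joint test of both. They were measured in MDA-MB-231, an established triple-negative breast cancer line, treated with control siRNA or with ADAR1 siRNA. ADAR1 is an editing enzyme: in double-stranded RNA it turns adenosine into inosine. For each siRNA the study made RNA-seq libraries of longer RNA fragments, which the labels call Input, and Ribo-seq libraries of ribosome-protected fragments (footprints). Each of the 4 groups held 2 libraries, so 8 libraries were compared, and both siRNA groups shared the cell line and the protocol. Whether the replicates came from separate cultures is not said in the labels. Each p-value therefore reflects the spread among the sequenced libraries alone, and that spread may be technical.

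DNA replication starts from origins that are licensed in G1. The origin recognition complex (ORC), CDC6 and CDT1 load the ring of MCM proteins on DNA, and at the start of S phase CDC45 and the GINS complex turn this ring into the moving helicase. Primase and DNA polymerases then copy both strands, held by the sliding clamp PCNA, which the RFC complex loads. Many of these genes are targets of E2F transcription factors. The retinoblastoma protein releases these factors when cyclin-dependent kinases, that of cyclin E among them, become active. A footprint level combines how much messenger RNA is present with how many ribosomes occupy it, and translational efficiency (TE) is the footprint level divided by the RNA level.

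Total estimated counts ran from 15732757 to 17153716 in Input and from 10492223 to 14875465 in Ribo-seq. ADAR, the targeted gene, stood at 106.2 and 110.2 TPM (the deposited level per transcript length and library) in control Input, and at 14.8 and 30.6 TPM in ADAR1 siRNA replicates 1 and 2. In Ribo-seq it stood at 19.1 and 20.3 TPM with control siRNA and at 1.55 and 8.41 TPM with ADAR1 siRNA, so replicate 1 held less ADAR than replicate 2 in both assays. The labelled cell line was checked against 22 markers. Vimentin (VIM), a mesenchymal marker, lay between 4441 and 4694 TPM in Input, and the 5 mesenchymal markers summed to 6003 to 6705 TPM. The 8 luminal epithelial markers summed to 1542 to 1806 TPM. Of these, the hormone receptor genes ESR1 and PGR did not exceed 0.137 and 0.076 TPM. The keratin genes KRT8 (593 to 728 TPM), KRT18 (581 to 632) and KRT19 (244 to 422) were well expressed. Lower levels were seen for the receptor gene ERBB2 (29.5 to 35.5 TPM), EPCAM (13.3 to 21.0) and GATA3 (5.8 to 8.5). Among immune markers, PTPRC and CD3E did not exceed 0.377 TPM and CD68, a lysosomal protein, lay between 179 and 232 TPM. The 4 endothelial markers summed to no more than 8.75 TPM.

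Some of these markers differed in Ribo-seq with the same order of libraries as the replication genes described next. VIM had footprints of 1882 and 2275 TPM in controls and 831 and 1473 TPM after ADAR1 siRNA replicates 1 and 2 (log2 -0.78 ± 0.20, edgeR adjusted p = 0.0583). KRT8 fell from 259.8 and 332 TPM to 105 and 184 TPM (edgeR adjusted p = 0.0443), and KRT19 from 290.1 and 355 TPM to 133 and 173 TPM (0.0261). CAV1, another mesenchymal marker, rose from 788 and 738 TPM to 1126 and 1153 TPM (0.0422). The other mesenchymal markers, CD44, FN1 and EGFR, had positive Ribo-seq log2 values of 0.31, 0.91 and 0.32. Among luminal markers ERBB2 and EPCAM had 0.59 and 0.34, and KRT18 and GATA3 had -0.50 and -0.70. Each of these other markers had an edgeR adjusted p above 0.05. Among the 22 markers, ADAR1 siRNA footprints were below both controls for 5, above both for 6, overlapping for 4 and under the count filter for 7. Of all genes tested, 26.2% lay below both controls and 30.1% above both. The summed luminal footprints were 1067 and 1295 TPM in controls and 552 and 817 TPM after ADAR1 siRNA. Their part in the results on the 46 genes was not tested. In bulk libraries fewer cells of a kind and less RNA per cell cannot be told apart, and every value is relative to the rest of its library.

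RefSeq promoters (GRCh38.p14; 250 bases before to 50 after the annotated start) were found for 42 of the 46 genes, and not for CCNE2, MCM4, MCM5 and GINS4. Stretches from 160 bases before to 20 after the start are shown for 6 genes to which the results below return: CDC6, MCM2 and UHRF1, whose footprints fell, MCM3 and MCM6 of the same MCM ring, and E2F1, which had the highest positive footprint difference. Each reads 5′ to 3′ along the gene's own strand, and capitals mark any of 4 E2F-type words, TTTCCCGC, TTTGGCGC, TTTCGCGC and TTTGCCGC, on either strand; words on opposite strands can overlap.
CDC6 (chr17:40287719-40287898, plus strand): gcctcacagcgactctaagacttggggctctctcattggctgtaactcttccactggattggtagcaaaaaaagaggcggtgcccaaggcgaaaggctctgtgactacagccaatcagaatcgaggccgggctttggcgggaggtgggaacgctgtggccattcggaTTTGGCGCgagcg
MCM2 (chr3:127598251-127598430, plus strand): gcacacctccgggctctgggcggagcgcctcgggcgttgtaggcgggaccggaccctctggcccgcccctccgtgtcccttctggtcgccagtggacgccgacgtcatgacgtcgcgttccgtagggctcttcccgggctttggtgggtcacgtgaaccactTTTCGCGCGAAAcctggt
MCM3 (chr6:52284723-52284902, minus strand): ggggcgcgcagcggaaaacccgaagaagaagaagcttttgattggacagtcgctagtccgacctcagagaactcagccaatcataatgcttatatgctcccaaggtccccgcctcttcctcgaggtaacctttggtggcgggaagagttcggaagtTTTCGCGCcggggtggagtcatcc
MCM6 (chr2:135876424-135876603, minus strand): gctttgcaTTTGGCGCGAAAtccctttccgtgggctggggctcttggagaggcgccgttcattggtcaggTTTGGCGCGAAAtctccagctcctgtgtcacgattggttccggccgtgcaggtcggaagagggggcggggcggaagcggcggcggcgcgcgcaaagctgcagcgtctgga
UHRF1 (chr19:4909341-4909520, plus strand): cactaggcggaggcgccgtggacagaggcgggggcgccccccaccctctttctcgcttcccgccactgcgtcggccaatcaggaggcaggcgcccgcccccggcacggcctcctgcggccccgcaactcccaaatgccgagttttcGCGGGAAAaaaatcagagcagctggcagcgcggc
E2F1 (chr20:33686366-33686545, minus strand): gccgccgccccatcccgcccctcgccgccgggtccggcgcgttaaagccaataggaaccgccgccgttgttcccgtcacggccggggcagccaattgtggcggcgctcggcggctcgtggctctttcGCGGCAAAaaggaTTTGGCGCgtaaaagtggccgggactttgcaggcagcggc
In these letters MCM6 carries a pair of longer blocks in which words of both strands overlap, and MCM2 carries 1 such block close to the start. All 6 genes shown carry a word, whereas 22 of the 42 genes carry none, among them PRIM2, RRM1 and RRM2. UHRF1 has more than 1 promoter, and the stretch shown lies inside the gene, after its first base at 4903080. A gene with several promoters was counted once, if any of them held a word. At least 1 of the 4 words occurred in 20 of the 42 genes (47.6%), against 6.70% of the 10401 genes tested in RNA that have a promoter and 3.99% of all 27305 genes in the promoter table. The CCAAT word, searched the same way, stood in 59.5% of the 42 genes and 43.5% of the tested genes. The same shares were 73.8% and 77.3% for the GC-box word GGGCGG, 7.14% and 8.62% for TATAAA, and 2.38% and 14.1% for TTTGAA. A word match is a description of the letters and no evidence of binding.

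The messenger RNAs of these genes showed no change that passed the test, while the footprints of 8 of them fell after ADAR1 siRNA and those of none rose. The 8 were CDC6, MCM2, MCM4 and MCM5 of origin licensing, PRIM2 of primase, RRM1 and RRM2 of ribonucleotide reductase, and the chromatin factor UHRF1. In the quasi-likelihood test of edgeR, adjusted over all genes by the Benjamini-Hochberg method, their adjusted p ran from 0.0349 to 0.0490. Among all 12000 genes tested in Ribo-seq, 3.54% were called at an adjusted p under 0.05, 1.67% lower and 1.88% higher. The median log2 fold change of the 46 genes in Ribo-seq was -0.46, against 0.05 over all genes tested, and 40 of the 46 lay below 0. Both ADAR1 siRNA libraries were lower than both controls for 35 of the 46 genes, against 26.2% of all genes, and higher than both for 3 (E2F1, ORC6 and GINS2), against 30.1%. In all, 24 of the 46 were lower at an unadjusted p under 0.05, against 11.3% of all genes. Beyond the 8 called, 16 of them had a negative log2 fold change with an unadjusted p under 0.05 and an edgeR adjusted p from 0.0502 to 0.195. The calls lay close to the threshold and moved with the tool and with single libraries: DESeq2 called 17 of the 46 (8.15% of all genes), limma-voom 3 (2.08%) and limma on log2(TPM + 1) 0 (0.100%). With edgeR, 0 were called without control Ribo-seq replicate 2 (0.621% of all genes). It called 16 without ADAR1 siRNA Ribo-seq replicate 1 (15.3%) and 31 without its replicate 2 (28.1%).

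In Input the median log2 fold change of the 46 genes was 0.03, with a range from -0.39 (LIG1) to 0.32 (GINS4), and 27 lay above 0. edgeR called 0 of the 46 (0.253% of all 12644 genes tested). At an unadjusted p under 0.05 there were 10 (25.3% of all genes), 6 of them higher and 4 lower. DESeq2 and limma-voom also called 0 of the 46 (3.45% and 0.237% of all genes). The smallest edgeR adjusted p was 0.0835, for DTL. Both ADAR1 siRNA libraries were lower than both controls for 8 genes (29.7% of all genes tested) and higher for 16 (28.5%). Without ADAR1 siRNA Input replicate 1 edgeR called 15 of the 46 in RNA, and without replicate 2 it called 22, when 31.9% and 42.1% of all genes were called.

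The difference between both assays was tested as the interaction of assay and siRNA over all 8 libraries, which is the change in TE. Its median over the 46 genes was -0.46 on the log2 scale, against 0.09 over all genes tested, and 39 of the 46 lay below 0. edgeR called 0 of the 46 (0.0463% of all 12953 genes tested), with 25 at an unadjusted p under 0.05 (22.7% of all genes), 24 of them lower (9.48%). DESeq2 called 15 of the 46, 14 of them lower, when it called 7.47% of all genes. With limma-voom 0 of the 46 were called, as were 0 of all 12953 genes. The smallest edgeR adjusted p was 0.0534, for CDC6. In the authors' deposited TE, both ADAR1 siRNA values were lower than both controls for 37 of the 46 genes and higher for 2, E2F1 and ORC6, against 28.3% and 24.6% of 12357 genes. Without ADAR1 siRNA Ribo-seq replicate 1 edgeR called 5 of the 46 in TE (3.81% of all genes), and without its replicate 2 it called 22 (16.9%).

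**Figure D1:**
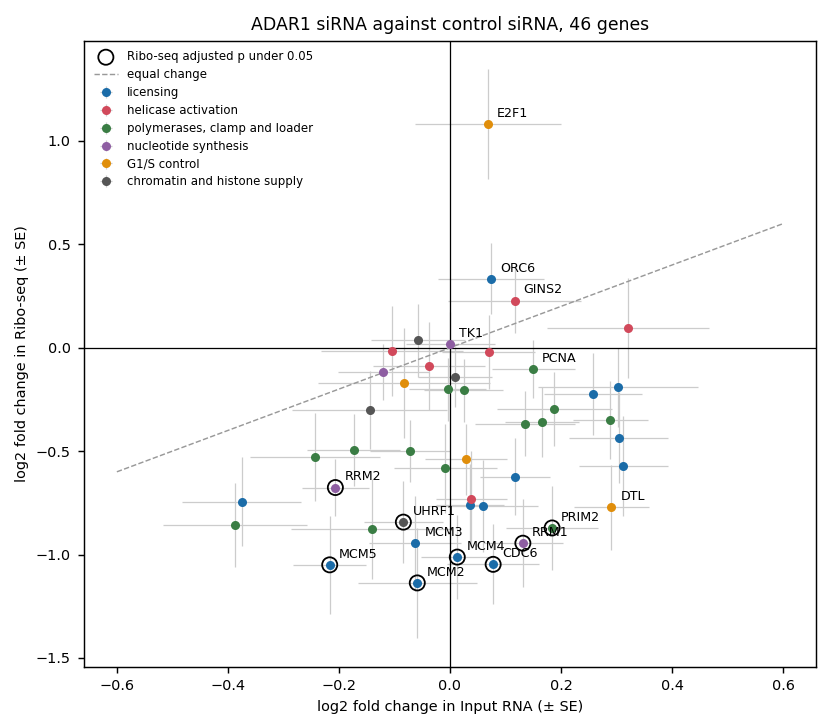
The log2 fold change in Input RNA (horizontal) is set against that in Ribo-seq (vertical) for each of the 46 genes, coloured by role, with bars of 1 SE, black rings at an edgeR adjusted p under 0.05 in Ribo-seq, and a dashed line of equal change. RNA values lie between -0.39 and 0.32, while Ribo-seq values spread from -1.14 to 1.08 with 40 of 46 below 0.

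Origin licensing held 14 of the genes and the lowest footprint values. Their median log2 fold change was 0.07 in RNA, -0.75 in Ribo-seq and -0.78 in TE, and the ADAR1 siRNA footprints were below both controls for 13 of the 14, all but ORC6. Footprints of CDC6, MCM2, MCM4 and MCM5 passed the test. CDC6, the ATPase that works with ORC to load MCM (gene at chromosome 17, 40287879 to 40304657), stood at 23.4 and 32.1 TPM in control Ribo-seq and at 10.5 and 14.8 TPM after ADAR1 siRNA. Its RNA stood at 124 and 121 TPM in the controls and at 142 and 117 TPM after ADAR1 siRNA. The footprints thus lay apart and the RNA values overlapped: the log2 fold change was -1.05 ± 0.19 (SE) in Ribo-seq, a 2.07-fold fall with an edgeR adjusted p of 0.0349, and 0.08 ± 0.08 in RNA with 0.588.

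The MCM ring is built of MCM2 to MCM7, 1 copy of each. MCM2 (chromosome 3, 127598411 to 127622436) had control footprints of 16.9 and 26.7 TPM and ADAR1 siRNA footprints of 6.42 and 12.4 TPM. Its log2 fold change of -1.14 ± 0.27 was the lowest of the 46 genes (edgeR adjusted p = 0.0490), with Input at 95.1 and 95.3 TPM against 84.8 and 99.6 TPM. MCM4 (chromosome 8, 47960941 to 47978160) had footprints of 27.4 and 34.9 TPM in the controls and 11.035 and 18.2 TPM after ADAR1 siRNA. Input RNA of MCM4 hardly varied, at 150 and 145 TPM against 150 and 151 TPM, and the Ribo-seq log2 fold change was -1.01 ± 0.20 (edgeR adjusted p = 0.0420). MCM5 (chromosome 22, 35400140 to 35455031) had footprints of 16.5 and 24.4 TPM against 6.87 and 11.8 TPM, and Input of 75.1 and 71.7 TPM against 66.7 and 61.5 TPM. Its groups did not overlap in either assay, and the log2 values were -1.05 ± 0.24 in Ribo-seq (edgeR adjusted p = 0.0460) and -0.22 ± 0.07 in RNA (0.121).

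The other ring subunits lay on the same side of 0 without passing the test. MCM3, the ring subunit with the most RNA, had Input levels of 260 and 264 TPM in controls and 242 and 265 TPM after ADAR1 siRNA. Its footprints were 100 and 134 TPM against 41.6 and 77.3 TPM, which gave a log2 of -0.95 ± 0.23 and an edgeR adjusted p of 0.0536. MCM7 had Input levels of 222 and 226 TPM against 241 and 227 TPM, and footprints of 80.2 and 99.0 TPM against 37.3 and 63.0 TPM (log2 -0.76 ± 0.20, edgeR adjusted p = 0.0615). MCM6 had a log2 of -0.62 ± 0.19 in Ribo-seq, the value nearest to 0 in the ring, and 0.12 ± 0.06 in RNA. For each of the 6 subunits both ADAR1 siRNA libraries were below both controls in Ribo-seq and in TE, whose log2 values ran from -1.05 to -0.71, none called by edgeR.

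None of the ORC subunits, which bind origins, was called. ORC1 to ORC5 had RNA log2 values from 0.06 to 0.31 and Ribo-seq values from -0.76 (ORC1) to -0.19 (ORC5). Their 5 TE values ran from -0.86 to -0.46, and in all 5 the ADAR1 siRNA footprints lay below both controls. ORC6, which joins the complex more loosely, had a positive Ribo-seq log2 of 0.33 ± 0.17 (edgeR adjusted p = 0.269). CDT1, the partner of CDC6 in loading, had negative log2 values in RNA (-0.38 ± 0.11) and in Ribo-seq (-0.74 ± 0.21), with edgeR adjusted p of 0.111 and 0.0752.

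Helicase activation held 6 genes, none called, with median log2 values of 0.05 in RNA, -0.02 in Ribo-seq and -0.04 in TE. The 4 GINS subunits lay between -0.02 and 0.23 in Ribo-seq, apart from the ring they activate, whose values ran from -1.14 to -0.62; the difference between both complexes was not tested. CDC45, the other partner of the ring, had footprints of 16.0 and 16.6 TPM in controls and 10.5 and 18.2 TPM after ADAR1 siRNA, and Input of 58.8 and 57.4 TPM against 53.8 and 59.5 TPM. The ADAR1 siRNA values of CDC45 enclosed the controls in both assays, and its Ribo-seq log2 was -0.09 ± 0.21. GINS4 also split between replicates, with footprints of 34.5 and 70.4 TPM after ADAR1 siRNA around controls of 52.2 and 50.7 TPM. Its Ribo-seq log2 of 0.10 ± 0.24 became -0.44 without ADAR1 siRNA replicate 2 and 0.46 without replicate 1, and edgeR called both. MCM10, which helps to start the helicase, had footprints of 13.5 and 18.8 TPM against 6.69 and 11.7 TPM, while its Input stood at 55.5 and 56.1 TPM against 60.4 and 55.7 TPM. Its Ribo-seq log2 of -0.73 ± 0.23 had an edgeR adjusted p of 0.0951.

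The 14 genes of polymerases, clamp, clamp loader and strand joining had median log2 values of 0.01 in RNA, -0.43 in Ribo-seq and -0.45 in TE. All 14 Ribo-seq values were below 0, and 1 passed. That was PRIM2, the large subunit of primase (chromosome 6, 57221540 to 57646850), with footprints of 30.8 and 38.5 TPM in controls and 13.2 and 23.5 TPM after ADAR1 siRNA. Its Input was 64.0 and 61.2 TPM against 69.9 and 72.9 TPM. PRIM2 thus lay lower in footprints and higher in RNA in both ADAR1 siRNA libraries, with log2 values of -0.87 ± 0.20 (edgeR adjusted p = 0.0490) and 0.18 ± 0.08 (0.222).

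PRIM1, the catalytic primase subunit, had a Ribo-seq log2 of -0.30 ± 0.18, and the polymerase alpha subunits POLA1 and POLA2 had -0.36 ± 0.17 and -0.88 ± 0.24, none called. The catalytic subunits of the main leading- and lagging-strand polymerases, POLE and POLD1, had -0.50 ± 0.17 and -0.53 ± 0.21. The 5 subunits of the clamp loader, RFC1 to RFC5, lay between -0.50 and -0.20, all with ADAR1 siRNA footprints below both controls. PCNA, the clamp itself, was the most abundant of the 46 genes in footprints, at 398 and 414 TPM in controls and 309 and 404 TPM after ADAR1 siRNA. Its Input stood at 349 and 323 TPM against 373 and 381 TPM, and its Ribo-seq log2 was -0.10 ± 0.14. FEN1, the flap nuclease of Okazaki fragment processing, had footprints of 98.2 and 129 TPM against 51.9 and 91.8 TPM with Input at 200 and 209 TPM against 194 and 217 TPM. Its log2 of -0.58 ± 0.22 in Ribo-seq had an edgeR adjusted p of 0.140. LIG1, which joins those fragments, had a Ribo-seq log2 of -0.86 ± 0.20 that just missed the threshold (edgeR adjusted p = 0.0502), and an RNA log2 of -0.39 ± 0.13.

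Among 4 genes of nucleotide synthesis, the footprints of both subunits of ribonucleotide reductase fell, and those of the thymidylate enzymes did not pass the test. RRM1, the large subunit (chromosome 11, 4094685 to 4138932), had footprints of 32.3 and 49.7 TPM in controls and 16.3 and 24.9 TPM after ADAR1 siRNA. Input RNA of RRM1 was 237 and 228 TPM against 253 and 262 TPM, higher in both ADAR1 siRNA libraries. RRM1 had log2 values of -0.95 ± 0.21 in Ribo-seq (edgeR adjusted p = 0.0460) and 0.13 ± 0.07 in RNA. RRM2, the small subunit (chromosome 2, 10122568 to 10211010), had footprints of 251 and 268 TPM against 137 and 168 TPM, and Input of 285 and 285 TPM against 258 and 241 TPM. Here both assays were lower in both ADAR1 siRNA libraries, with log2 values of -0.68 ± 0.14 in Ribo-seq (edgeR adjusted p = 0.0422) and -0.21 ± 0.06 in RNA (0.113). TYMS, thymidylate synthase, stood at 313 and 322 TPM against 268 and 280 TPM in Ribo-seq, and at 380 and 356 TPM against 331 and 353 TPM in Input. Its Ribo-seq log2 was -0.12 ± 0.14. TK1, thymidine kinase, had a Ribo-seq log2 of 0.02 ± 0.16 and an RNA log2 of 0.00 ± 0.08.

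The 4 genes of G1/S control did not move together, and none passed. DTL, the substrate receptor of the ubiquitin ligase that removes CDT1 in S phase, had Input levels of 65.6 and 69.4 TPM in controls and 87.7 and 80.3 TPM after ADAR1 siRNA. Its footprints went the opposite way, from 13.7 and 18.0 TPM to 6.91 and 10.7 TPM. The groups of DTL did not overlap in either assay, with log2 values of 0.29 ± 0.07 in RNA, -0.77 ± 0.21 in Ribo-seq and -1.03 ± 0.22 in TE and edgeR adjusted p of 0.0835, 0.0630 and 0.0552. CCNE2, a cyclin E, had Input of 57.2 and 59.7 TPM against 63.4 and 57.9 TPM and footprints of 29.6 and 34.2 TPM against 16.8 and 23.3 TPM (log2 -0.54 ± 0.17, edgeR adjusted p = 0.0956). CCNE1, the other cyclin E, had the least RNA of the 46 genes, from 14.9 to 18.8 TPM over the Input libraries, and a Ribo-seq log2 of -0.17 ± 0.27. The values of E2F1, the transcription factor, are given because of their sign, after they were seen. Its footprints were 2.11 and 2.93 TPM in controls and 4.08 and 5.95 TPM after ADAR1 siRNA, with Input at 57.6 and 58.6 TPM against 54.7 and 68.1 TPM. E2F1 therefore lay higher in both ADAR1 siRNA footprint libraries, with a log2 of 1.08 ± 0.27 that missed the threshold (edgeR adjusted p = 0.0548), from a low footprint level of 50 and 59 counts in the controls and 128 and 174 after ADAR1 siRNA.

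Of 4 genes for chromatin and histone supply, 1 passed. UHRF1, which brings the maintenance DNA methyltransferase to new DNA (chromosome 19, 4903080 to 4962154), had footprints of 28.6 and 38.0 TPM in controls and 13.7 and 21.5 TPM after ADAR1 siRNA. Input RNA of UHRF1 was 123 and 126 TPM against 117 and 121 TPM, a log2 of -0.08 ± 0.07, while Ribo-seq gave -0.84 ± 0.20 (edgeR adjusted p = 0.0490). SLBP, which binds the stem-loop of histone messages, had footprints of 103 and 112 TPM against 83.3 and 104 TPM and Input of 155 and 159 TPM against 160 and 159 TPM. Its footprint groups overlapped in TPM but not in TMM-scaled CPM, where both ADAR1 siRNA libraries were lower, and the log2 of -0.14 ± 0.15 did not pass the test (edgeR adjusted p = 0.594). The large subunits of the histone chaperone CAF-1, CHAF1A and CHAF1B, had Ribo-seq log2 values of 0.04 ± 0.18 and -0.30 ± 0.19.

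Each library was also set against the mean of its controls. The 46 genes took 0.475% to 0.496% of all Input counts, with no order between the siRNAs. In Ribo-seq they took 0.415% and 0.469% in the controls and 0.291% and 0.358% in ADAR1 siRNA replicates 1 and 2. In replicate 1 the median footprint difference was -0.51 on the log2 scale and 42 of the 46 genes lay below the control mean, and in replicate 2 these values were -0.32 and 39. Over all genes the same medians were 0.06 and 0.00. Replicate 1, with the lower ADAR level, thus had the lower footprint values, and it was below replicate 2 for 37 of the 46 genes. The same order held in Input, where ADAR1 siRNA replicate 1 was below replicate 2 for 31 of the 46 genes. The Input medians were -0.01 and 0.05, with 23 and 12 genes below the control mean. Over all genes these Input medians were -0.004 and -0.002. The control Ribo-seq libraries also differed from each other, since replicate 1 was below replicate 2 for 36 of the 46 genes, with medians of -0.10 and 0.09. Over all genes these control medians were -0.007 and 0.007. The share of all genes with replicate 1 below replicate 2 was not computed. Whether the ADAR level had a part in the difference between replicates was not tested, and 2 libraries a group give no correlation.

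**Figure D2:**
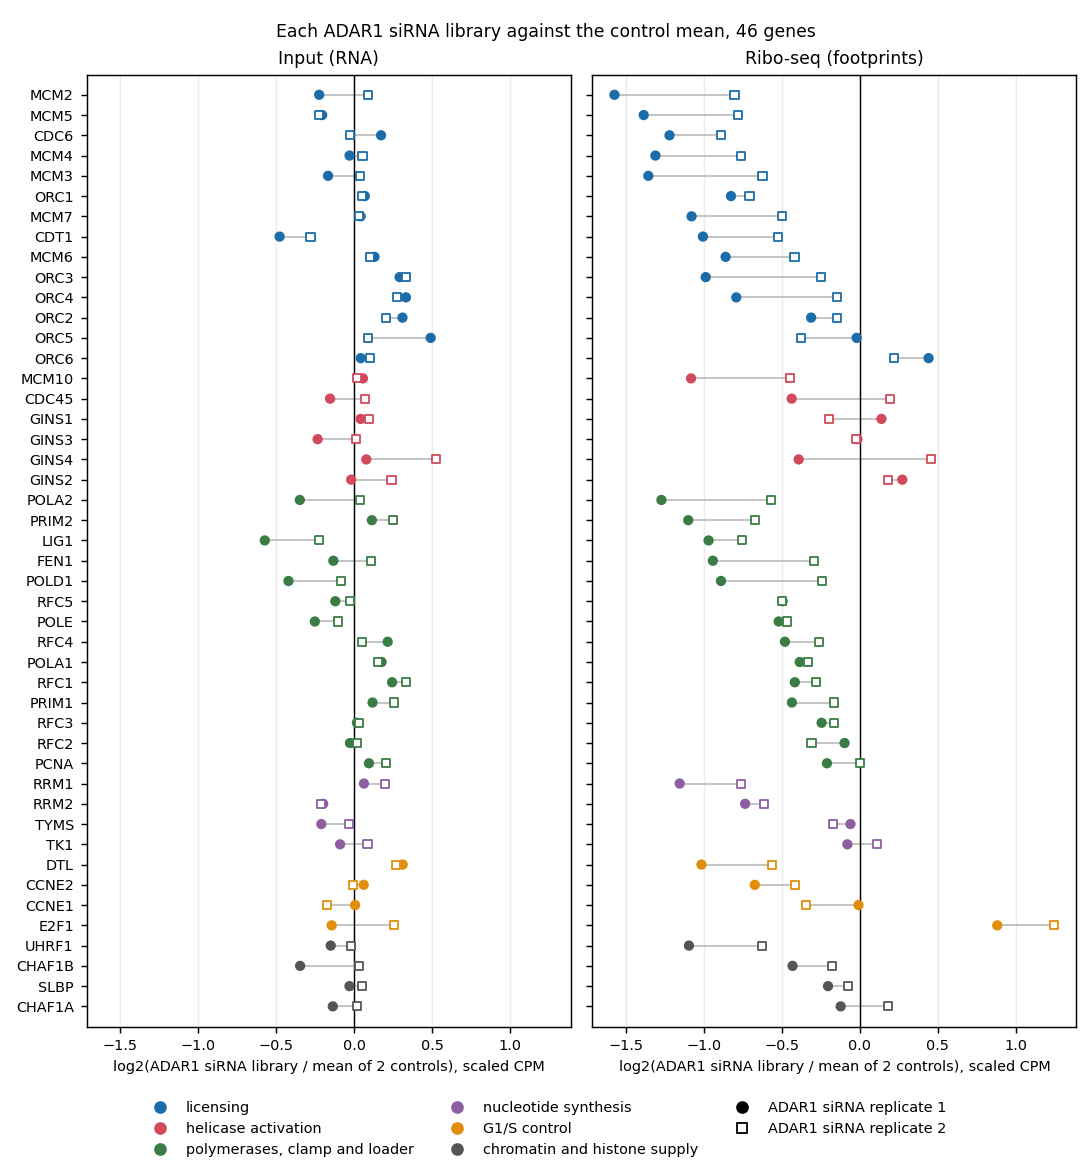
Each ADAR1 siRNA library is drawn against the mean of the 2 controls of its assay as a log2 ratio of scaled CPM (horizontal), for each of the 46 genes (vertical), with filled circles for replicate 1 and open squares for replicate 2. In Input, 23 (replicate 1) and 12 (replicate 2) of the 46 values lie below 0, while 42 (replicate 1) and 39 (replicate 2) of the 46 Ribo-seq values do.

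Translational efficiency in the control cells spanned a wide range, as given by the authors' deposited ratio of Ribo-seq TPM to Input TPM. Its median over the 46 genes was 0.319, against 0.379 over 12454 genes with a value. It was highest for GINS2 (1.85 and 1.89 in the control replicates), followed by GINS4, GINS1, TK1 and PCNA with means of 1.44, 1.38, 1.24 and 1.21. Next to lowest were POLE (0.111) and RFC1 (0.0553), and E2F1 was lowest, at 0.0367 and 0.05002. The 3 highest were GINS genes, and the fourth, GINS3, had a mean of 0.704. Within the MCM ring the control TE ran from 0.212 (MCM4) to 0.447 (MCM3). Of 45 pairs of neighbours in this order, 39 overlapped between the control replicates, so most neighbours could not be ranked. TE levels also depend on the length used for each assay: the ratio of the length behind the Ribo-seq TPM to that behind the Input TPM, each relative to the median gene, had quartiles of 0.80 and 1.66 over genes.

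**Figure D3:**
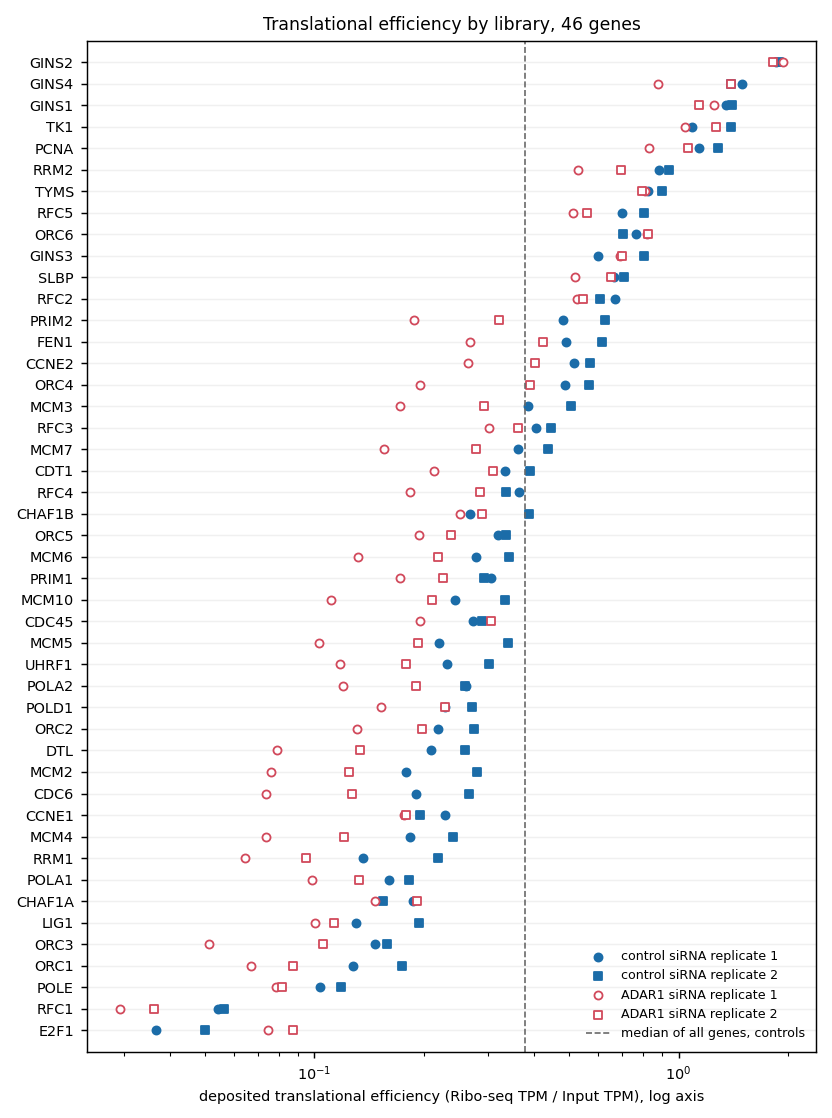
The authors' deposited TE (horizontal, log axis) is drawn for each of the 46 genes (vertical), ordered by the control mean, with filled marks for the 2 control replicates and open marks for the 2 ADAR1 siRNA replicates. Open marks lie to the left of both filled marks for 37 of the 46 genes, and to the right of both for E2F1 and ORC6.

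The footprint difference varied with gene length among the 46 genes. Length here is the one implied by the deposited values, the Ribo-seq count divided by its TPM, relative to the median gene. Across the 46 genes Spearman's rho between length and the Ribo-seq log2 fold change was -0.56 (Pearson's r with log2 length -0.51), against -0.11 (-0.09) across 10485 genes of all kinds. The same rho for RNA was -0.14. These are descriptions across genes measured in the same 4 libraries, which are not independent. All genes were cut by length into 4 bins of equal size. In the shortest bin the 6 members (the 4 GINS subunits, TK1 and ORC6) had a median of 0.06, where all genes of that bin had 0.10. The median was -0.30 for 13 genes in the second bin, -0.50 for 12 in the third and -0.76 for 15 in the longest, against 0.03, -0.01 and 0.00 for all genes of those bins. Called members numbered 0, 2, 1 and 5 in these bins. The share of all genes called in each bin was not computed, so these counts have no background to be read against. All 4 GINS subunits lay in the shortest bin, so for them the complex and the length cannot be told apart. MCM10 and CDC45, also of helicase activation, had relative lengths of 2.02 and 1.29, with Ribo-seq log2 values of -0.73 and -0.09.

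**Figure D4:**
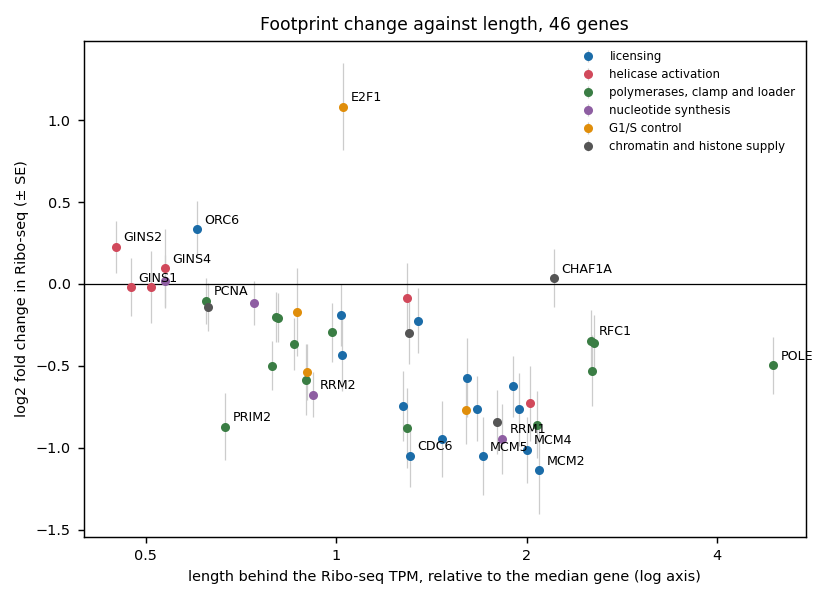
The Ribo-seq log2 fold change (vertical, bars of 1 SE) is drawn against the length behind the Ribo-seq TPM relative to the median gene (horizontal, log axis) for the 46 genes, coloured by role. The GINS genes at the short end lie near 0, and most of the genes in the longest bin lie below it, with a median of -0.76.

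The genes were also compared by the promoter words shown above. The 20 genes with at least 1 E2F-type word had a median Ribo-seq log2 of -0.60, with 3 called, and the 22 without had -0.32, also with 3 called. Among all genes tested in Ribo-seq 3.54% were called. MCM4 and MCM5, also called, had no promoter to search. Median RNA log2 values were 0.03 and 0.02, and median TE values -0.47 and -0.45. MCM2, CDC6 and UHRF1 carry a word and fell in footprints, while PRIM2, RRM1 and RRM2 carry none and also fell. E2F1, whose footprint difference was positive, carries a word too.

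Beyond the 46 genes, 77 others of the same pathway (further cyclins and inhibitors, other E2F and retinoblastoma family genes, RPA, accessory polymerase subunits, checkpoint and histone chaperone genes) were taken from a list. edgeR called 0 of the 77 in each of the 3 comparisons, with 18 in RNA, 21 in Ribo-seq and 20 in TE at an unadjusted p under 0.05. Counted in either direction, these are 23.4%, 27.3% and 26.0% of the 77, close to the 25.3%, 24.0% and 22.7% of all genes. DESeq2 called 4, 7 and 5 of them (5.19%, 9.09% and 6.49%), against 3.45%, 8.15% and 7.47% of all genes. Against 0.237%, 2.08% and 0% of all genes, limma-voom called 0 of the 77 in each. Their median log2 was 0.01 in RNA, -0.13 in Ribo-seq and -0.06 in TE, against 0.00, 0.05 and 0.09 over all genes tested. Of the 21 in Ribo-seq, 16 were lower (20.8% of the 77, against 11.3% of all genes) and 5 higher. Of the 20 in TE, 13 were lower (16.9%, against 9.48% of all genes) and 7 higher.

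Reads of related or overlapping genes limit some values. By RefSeq coordinates, 11 of the 46 genes overlap another protein-coding gene, among them PRIM2 and UHRF1. For 9, MCM3, PRIM2, RRM2 and PCNA among them, RefSeq holds a symbol that adds a pseudogene-like ending to theirs. This match was by letters alone and did not check that the gene so named is a pseudogene. No source used here gives the strand setting of the counting, so reads of overlapping genes could not be assigned with certainty.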

How the data were processed

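The authors deposited 1 table of 19892 genes with estimated counts, TPM and TE for each library; per the submitters' processing notes, cutadapt, Bowtie2, STAR, featureCounts and GRCh38 (hg38) were used, with versions, settings, roles and strand not given in the sources used here. Between 87.0% and 90.1% of the deposited estimated counts were whole numbers; how fractions arose is not given. TPM is the authors' level per length. TE is the authors' deposited ratio of Ribo-seq TPM to Input TPM of the same siRNA and replicate number, which at least 99.985% of values in each column matched within rounding. Gene numbers were matched to symbols for 19669 genes. Promoters came from RefSeq (GRCh38.p14).

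Samples were grouped by title. Estimated counts were rounded, scaled by TMM, filtered with filterByExpr and tested two-sided with edgeR 4.0.16 in R 4.3.3 (quasi-likelihood, Benjamini-Hochberg over all genes, threshold 0.05): RNA over 4 Input libraries, footprints over 4 Ribo-seq libraries, TE as the interaction over all 8. SE was computed as the absolute log2 fold change over the root of F. Overlap of groups in RNA and Ribo-seq was read on TMM-scaled CPM. An exact permutation test of 2 against 2 cannot go below p = 0.333. Scripts were tested on simulated counts. Alternatives used DESeq2 1.42.0, limma 3.58.1, other scalings and filters, a replicate block and each library left out. The labels do not say that same-numbered libraries share a culture, so replicate numbers were not used as pairs. The deviations of same-numbered control and ADAR1 siRNA libraries were compared, and those of Input and Ribo-seq of 1 siRNA.

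The members, roles, lists and tests were chosen with earlier results of these data known. All 46 members are accounted for. Values in every library are given for called members and for the 2 members of each role with the highest control Input TPM. For lengths, a library was used for a gene only if its count there was 50 or more. The median over such libraries was taken.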

Additional observations from a re-analysis of the deposited data

How the results depend on the processing

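The median footprint difference of the 46 genes was below 0 in 13 of 13 alternatives and that of TE in 19 of 19, while that of RNA was below 0 in 1 of 13. The number of genes called in Ribo-seq, 8 with the test used, was 22 with no filter on low counts (10.9% of all genes), 17 with DESeq2 (8.15%), 3 with limma-voom (2.08%) and 0 with limma on log2(TPM + 1) (0.100%), and from 0 to 31 with each library left out. When a library was left out, the median in Ribo-seq ran from -0.56 to -0.32. In TE, 0 became 14 with no filter (5.04%) and 15 with DESeq2 (7.47%), and from 0 to 22 with each library left out. In RNA, 0 became from 0 to 22 with each library left out. In such fits 1 group had a lone library, assumed to vary like the other group. With the replicate number as a block, edgeR called 3 genes in RNA, 23 in Ribo-seq (1 higher and 22 lower) and 7 in TE. The shares of all genes were 8.66%, 17.5% and 3.46%. Across siRNAs the deviations of same-numbered libraries correlated at 0.00047 in RNA and 0.018 in Ribo-seq. With 1 replicate difference per siRNA these values cannot show whether same-numbered libraries share a culture or a batch. Between Input and Ribo-seq of the same number the correlation was 0.021 for control and 0.31 for ADAR1 siRNA. A TE fit with a block for each such pair, chosen after seeing the data, called 17 genes, 1 higher and 16 lower, against 9.02% of all genes.

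Among all genes the Ribo-seq calls were 225 higher and 200 lower, but 311 and 176 with upper-quartile scaling and 391 and 587 with DESeq2; the members were then 1 higher and 6 lower, and 0 and 17. None of the 8 called genes changed sign in 13 alternatives. All 8 lost the call with limma on log2(TPM + 1) and without control Ribo-seq replicate 2; MCM2, MCM5, RRM1, PRIM2 and UHRF1 lost it also with limma-voom, PRIM2 and UHRF1 with upper-quartile scaling, and RRM2 without control Ribo-seq replicate 1. GINS4 in Ribo-seq ran from -0.44 without ADAR1 siRNA replicate 2 (edgeR adjusted p = 0.0224) to 0.46 without replicate 1. The cause of these changes was not tested. Depth, the spread between libraries and their number jointly limit what could be called.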
